A study of Homo sapiens with 12 samples.

Results

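The genes of the ATF4 and amino acid starvation response were followed through the RNA of a human retinal pigment epithelium (RPE) line that expressed different open reading frames (ORFs). The set holds 35 genes, taken by their symbol from a gene table of 60605 lines, 40591 of which carry a symbol. All 35 passed the filter on low counts and were tested among 15179 genes. By role they are 7 transcription factors, 7 stress effectors, 6 enzymes of serine and one-carbon metabolism, 6 other enzymes of amino acid and related metabolism, 8 amino acid transporters and XPOT, the exporter of tRNA from the nucleus.

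The cells were ARPE-19, an established human RPE line, and poly(A) RNA was sequenced in 12 libraries that form 4 groups of 3. The group named WT carries no ORF in the labels. The GFP, GSTA4 and OSK groups are stable lines sampled after 4 days of ORF expression. They express the green fluorescent protein as a control, glutathione S-transferase alpha 4, an enzyme that conjugates products of lipid peroxidation to glutathione, or the reprogramming factors POU5F1 (OCT4), SOX2 and KLF4, as the abbreviation OSK was read. The title of the series sets protection against oxidative damage beside reprogramming. Nothing in the labels says that libraries of 1 group are separate cultures, so p-values measure only the spread between these libraries, which may be technical. Each ORF was carried by its own line, so the ORF and any other difference between the lines cannot be told apart.

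ATF4 is the main transcription factor of the integrated stress response. When uncharged tRNA, unfolded protein, a lack of haem or double-stranded RNA activates a kinase that phosphorylates the translation factor eIF2alpha, most protein synthesis slows while the ATF4 mRNA is translated more, so much of ATF4's control lies outside the RNA levels measured here. ATF4, with partners of the C/EBP family, then raises genes for amino acid synthesis, uptake and tRNA charging, and, under prolonged stress, CHOP (DDIT3) and its targets, and these programmes supply the glycine, cysteine and glutamate from which RPE cells build glutathione.

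ATF4 and C/EBP proteins are known to bind composite elements whose core letters are TGATGNAA, so these letters were searched on both strands of the RefSeq promoter of each gene (GRCh38.p14, from 250 bases before to 50 bases after the start site). A promoter was found for 28 of the 35 genes, and 8 of these, or 28.6%, held the letters. NUPR1, PSPH, SHMT2, ALDH1L2, PYCR1, GPT2 and SLC7A11 had no promoter entry and were not searched. Over all 27305 gene symbols with a promoter, the share was 4.46%. The members were listed as genes of the ATF4 response, so the choice of list may itself raise their share, and no test was made. The 8 windows of 30 bases are shown because they mark which members carry these letters within the stretch searched. The capitals are the 8 letters of the match, and each sequence runs from 5′ to 3′ along the gene's own strand:
CEBPG (chr19:33374060-33374089, plus strand): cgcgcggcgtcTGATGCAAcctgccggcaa
JDP2 (chr14:75427995-75428024, plus strand): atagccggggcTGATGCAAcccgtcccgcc
CHAC1 (chr15:40953251-40953280, plus strand): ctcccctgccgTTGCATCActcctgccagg
ASNS (chr7:97872458-97872487, minus strand): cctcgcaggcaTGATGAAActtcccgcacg
SLC7A1 (chr13:29595663-29595692, minus strand): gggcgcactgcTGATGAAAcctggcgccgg
SLC3A2 (chr11:62881719-62881748, plus strand): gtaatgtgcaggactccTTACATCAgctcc
SLC1A4 (chr2:64989381-64989410, plus strand): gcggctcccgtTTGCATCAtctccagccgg
SLC1A5 (chr19:46784893-46784922, minus strand): gaggaagtggcTGATGCAAgctgtccaggg
In CHAC1, SLC3A2 and SLC1A4 the letters lie on the opposite strand and so appear as their reverse complement. The match with TGATGCAA, or its reverse complement, occurs in 5 of the 8 windows. A match is a description of the letters and not evidence of binding.

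Total counts ran from 12630675 to 17045454 per library, and no 2 libraries were identical. A count of 0 allows a level of up to 0.177 to 0.228 CPM (reads scaled to a common library size by TMM), taking 3 counts as the floor, which covers counting error only. The ORF genes matched the labels: GSTA4 stood at 415.8 ± 17.6 CPM (SD, n = 3) in the GSTA4 line and at most 22.5 CPM elsewhere, and POU5F1, SOX2 and KLF4 averaged 779.1, 628.1 and 927.8 CPM in the OSK line. Of 16 RPE markers, 13 passed the filter and RPE65, DCT and TTR stayed under 1 CPM in all libraries. The summed RPE markers were 2570 to 2790 CPM in WT, 2330 to 2670 CPM in GFP, 1770 to 1840 CPM in GSTA4 and 1520 to 1580 CPM in OSK. Against GFP, 8 of the 13 fell and 2 rose in GSTA4, and 12 fell and 1 rose in OSK. Against WT, 9 rose and 2 fell in GFP, 5 rose and 6 fell in GSTA4, and 3 rose and 6 fell in OSK. Most single markers thus rose in GFP against WT although the sum did not. Of all genes tested, 29.2% and 45.9% passed an adjusted p of 0.05 by edgeR in GSTA4 and OSK against GFP. Against WT the shares were 22.2%, 38.6% and 45.4% in GFP, GSTA4 and OSK. The summed level of 8 mitosis genes was 51.3 to 60.5 CPM in WT, 212 to 235 CPM in GFP, 155 to 161 CPM in GSTA4 and 443 to 539 CPM in OSK. In these bulk samples fewer cells of a type and less RNA per cell cannot be told apart, and the part of the marker and mitosis differences in the results below was not tested. Both GFP replicate 1 and WT replicate 1 stood apart. In GFP replicate 1, 27349 named genes had at least 1 read, where the other libraries had 19488 to 22073 such genes. WT replicate 1 had the highest level of its group for 22 of the 35 members, against 38.3% of all genes tested.

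**Figure D1:**
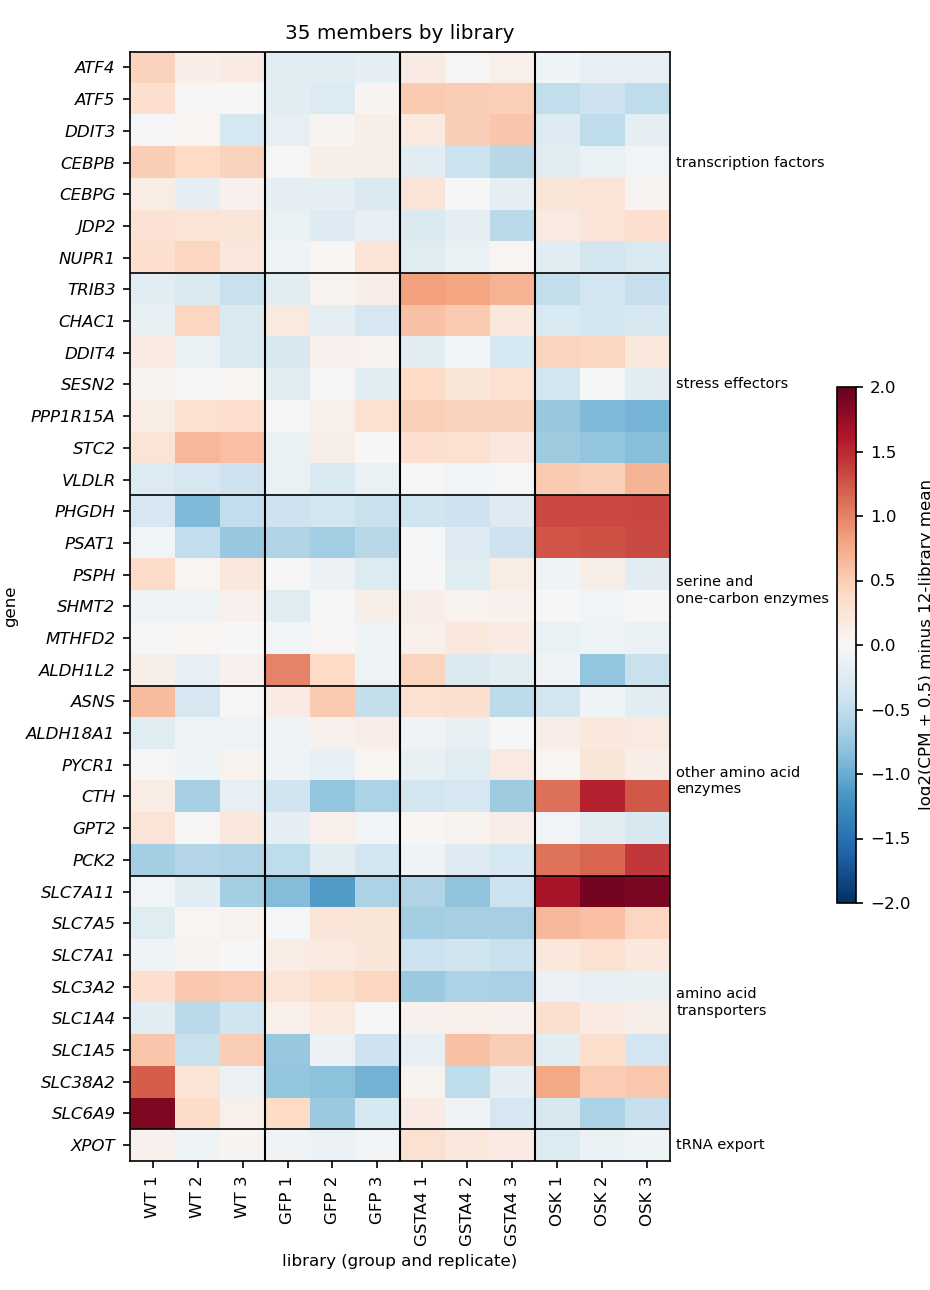
Level of the 35 members in each of the 12 libraries, coloured by log2(CPM + 0.5) minus the mean of the gene over the libraries, with genes as rows in blocks by role and libraries as columns by group. The OSK libraries are red (high) for PHGDH, PSAT1, CTH, PCK2 and SLC7A11, the GSTA4 libraries are high for TRIB3 and blue (low) for SLC3A2, and WT replicate 1 is high for SLC38A2 and SLC6A9.

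The GSTA4 and OSK lines each differed from the GFP line in part of the response. In the GSTA4 line, ATF4, ATF5, DDIT3 and 4 of 7 stress effectors (TRIB3, SESN2, PPP1R15A and STC2) were higher, and the transporters SLC3A2, SLC7A5 and SLC7A1 were lower. Against WT instead of GFP, the GSTA4 line had no call for ATF4 and a fall for STC2. In the OSK line, PHGDH and PSAT1 of serine synthesis, CTH, PCK2 and the cystine transporter SLC7A11 were higher, its heavy chain SLC3A2 was lower, and of the stress effectors TRIB3, PPP1R15A and STC2 were lower while DDIT4 and VLDLR were higher. A rise or fall by a number is a log2 fold change throughout. With edgeR's quasi-likelihood test, 13 of the 35 members (37.1%) passed an adjusted p of 0.05 for GSTA4 against GFP, 9 higher and 4 lower. The background was 29.2% of all genes tested (14.7% higher and 14.6% lower), and the median log2 fold change was 0.16 for the members and 0.01 for all genes. For OSK against GFP 19 members (54.3%) passed, 11 higher and 8 lower, where the background was 45.9% (23.1% higher and 22.8% lower). When libraries were scaled by their size alone, the OSK split was 11 higher and 9 lower, and the share of all called genes that were higher went from 50.4% to 39.8%. For GFP against WT 8 members (22.9%) passed, 2 higher and 6 lower, with a background of 22.2% (11% higher and 11.2% lower). These counts lie within about 10 percentage points of the background of each contrast.

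The OSK and GSTA4 lines differed from each other in more members than either differed from GFP. Of the 35, 25 (71.4%) passed for OSK against GSTA4, 14 higher and 11 lower in OSK, with a background of 47.8% (24.1% higher and 23.8% lower). Under library size alone the split was 14 and 13. Against WT, 18 members (51.4%) passed in GSTA4, 9 in each direction, with a background of 38.6% (19.7% higher and 19% lower). In OSK 21 (60%) passed against WT, 11 higher and 10 lower, with a background of 45.4% (22.7% in each direction) and a split of 11 and 12 under library size alone. Any difference among the 4 groups was called for 28 members (80%), with a background of 66.9%. The 7 without a call there were CHAC1, PSPH, SHMT2, ALDH1L2, ASNS, PYCR1 and SLC1A5. The highest group mean was found in OSK for 14 members, in WT and GSTA4 for 10 each, and in GFP for 1, where all genes tested gave 31.2%, 22.4%, 27% and 19.5%. The lowest group mean was found in OSK for 14 members as well, in GFP for 10, in GSTA4 for 6 and in WT for 5. There all genes tested gave 33%, 18.8%, 24.6% and 23.6%.

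**Figure D2:**
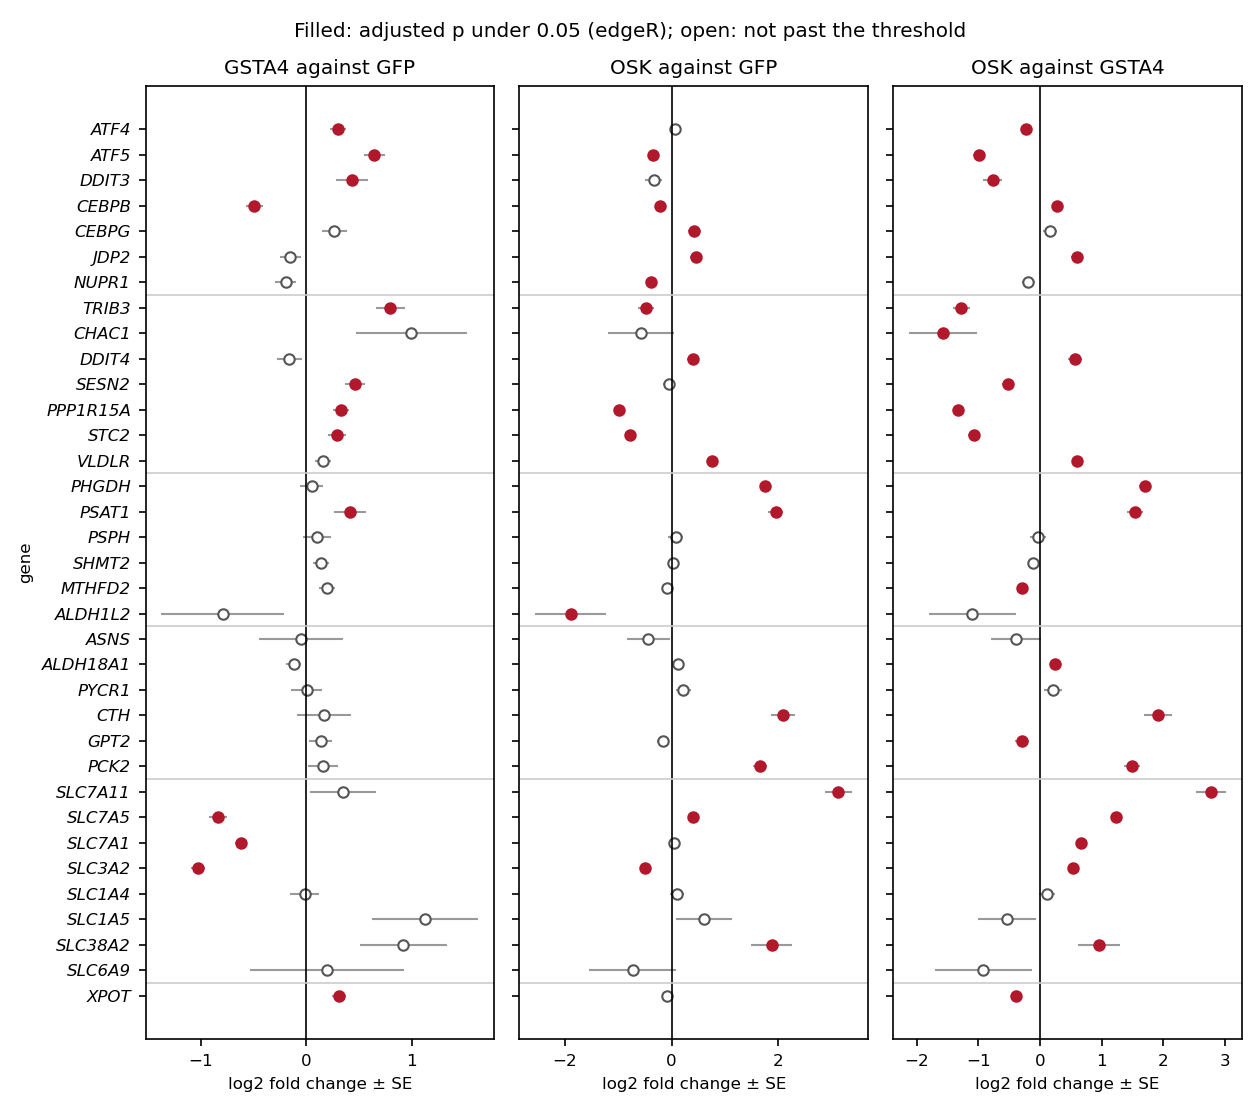
Log2 fold change of each of the 35 members (rows) with its standard error (lines), in panels for GSTA4 against GFP, OSK against GFP and OSK against GSTA4, with filled points past an adjusted p of 0.05 by edgeR and open points not past it. SLC7A11 is furthest to the right in both OSK panels (3.12 and 2.77), and among called members SLC3A2 is furthest to the left in GSTA4 against GFP (-1.03).

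Among the 7 transcription factors, 3 were higher and 1 lower in the GSTA4 line than in GFP (57.1% called, against 29.2% of all genes tested), and 2 were higher and 3 lower in OSK (71.4%, against 45.9%). ATF4 measured 366, 292 and 297 CPM in WT, 230.5, 231 and 232 CPM in GFP, 299, 270.3 and 285 CPM in GSTA4, and 250.4, 238 and 239 CPM in OSK. GFP was the lowest group and OSK the next, each without overlap, and GSTA4 and WT overlapped. A lack of overlap between 2 groups was common in these data. It was found for 42.3% of all genes tested in GSTA4 against GFP and 54.7% in OSK against GFP. The shares were 34.6% in GFP against WT, 58% in OSK against GSTA4, 49% in GSTA4 against WT and 53.5% in OSK against WT. ATF4 rose in GSTA4 against GFP (log2 fold change 0.30, SE 0.0723, edgeR adjusted p = 0.00345). It was lower in GFP than in WT by 0.46 on the log2 scale (log2 fold change -0.46, SE 0.0722, edgeR adjusted p = 0.000128). For OSK against GFP the difference was 0.07 (SE 0.0724, edgeR adjusted p = 0.483), although each OSK library exceeded each GFP library. Of the 24 tested genes within 1 Mb of ATF4, 7 (29.2%) were higher and 5 (20.8%) lower in GSTA4 than in GFP. The shares over all genes tested were 14.7% higher and 14.6% lower.

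ATF5, a close relative of ATF4 that is also induced through eIF2alpha, stood at 37, 29.5 and 29 CPM in WT and 25, 23.9 and 30.2 CPM in GFP. It stood at 42, 41.1 and 40.7 CPM in GSTA4 and at 20.6, 21.6 and 20.2 CPM in OSK. The GSTA4 libraries were the highest and the OSK libraries the lowest of the 12, while WT and GFP overlapped. The log2 fold change was 0.65 for GSTA4 against GFP (SE 0.102, edgeR adjusted p = 5.71e-05) and -0.34 for OSK against GFP (SE 0.106, edgeR adjusted p = 0.0124). The OSK call was lost without GFP replicate 3, the highest GFP library (log2 fold change -0.23, edgeR adjusted p = 0.109). Of the 51 tested genes within 1 Mb of ATF5, 17 (33.3%) were also higher in GSTA4 than in GFP, against 14.7% of all genes. DDIT3 encodes CHOP, which drives late stress and cell death genes. Its levels were 9.08, 9.55 and 7.14 CPM in WT, 8.21, 9.68 and 10.1 CPM in GFP, 10.7, 13.3 and 13.9 CPM in GSTA4, and 7.68, 6.39 and 8.16 CPM in OSK. Each GSTA4 library was above all others, OSK lay below GFP without overlap, and WT overlapped both GFP and OSK. DDIT3 rose in GSTA4 against GFP by 0.43 (SE 0.154, edgeR adjusted p = 0.0402), a call that was lost when GFP replicate 1, 2 or 3, GSTA4 replicate 2 or 3 or OSK replicate 1 was left out, with edgeR adjusted p-values of 0.0501 to 0.155. In the gene models used here (GENCODE 29), 39.6% of the exonic bases of DDIT3 are shared with other genes, mainly the methionyl-tRNA synthetase gene on the opposite strand, and the strand setting of the counts is not given in the sources used here.

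The C/EBP factors and JDP2 gave another order. CEBPB, a partner of ATF4 and CHOP, fell in each ORF line against WT, from 73.3, 68.4 and 72 CPM in WT to 52.8, 56.6 and 56.3 CPM in GFP, 44.3, 38.3 and 35 CPM in GSTA4 and 44.5, 47.3 and 50.2 CPM in OSK. No ORF library reached a WT library. The log2 fold change was -0.49 for GSTA4 against GFP (SE 0.0828, edgeR adjusted p = 0.000119) and -0.37 for GFP against WT (edgeR adjusted p = 0.00258). For OSK against GFP it was -0.22 (edgeR adjusted p = 0.0307), a call lost without GFP replicate 2 or 3 or OSK replicate 1 or 2 (edgeR adjusted p = 0.079 to 0.15). CEBPG, the partner with which ATF4 forms heterodimers, and JDP2, a bZIP repressor related to ATF3, carry a match to TGATGNAA in the promoter windows above. Both were higher in OSK than in GFP, by 0.43 (edgeR adjusted p = 0.00615) and 0.45 (edgeR adjusted p = 0.000699). JDP2 was 29.4, 29 and 28.3 CPM in WT and 21.8, 20 and 21.4 CPM in GFP, and it fell in GFP against WT by 0.46 (log2 fold change -0.46, edgeR adjusted p = 0.00204). NUPR1, a small stress-induced chromatin protein, went from 40, 42.7 and 36.9 CPM in WT and 29.7, 32.2 and 38.1 CPM in GFP to 27.2, 24.2 and 25.3 CPM in OSK. Its OSK libraries lay below all WT and GFP libraries, and its log2 fold change in OSK against GFP was -0.39 (edgeR adjusted p = 0.00407). Without GFP replicate 3, 2 factors were higher and 1 lower in OSK against GFP, and 5 rather than 3 were lower in GFP against WT.

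Of the 7 stress effectors, 4 rose and no member fell in the GSTA4 line against GFP (57.1% called, against 29.2% of all genes tested), and 2 rose and 3 fell in OSK (71.4%, against 45.9%). TRIB3, a pseudokinase that CHOP and ATF4 induce and that restrains ATF4, measured 7.15, 6.76 and 6.02 CPM in WT and 7.07, 8.82 and 9.17 CPM in GFP. It reached 15.1, 14.8 and 13.8 CPM in GSTA4 and stood at 5.83, 6.27 and 5.91 CPM in OSK. The GSTA4 libraries were above all others and the OSK libraries were below all GFP libraries. The log2 fold change was 0.80 for GSTA4 against GFP (SE 0.138, edgeR adjusted p = 0.000157) and -0.48 for OSK against GFP (SE 0.148, edgeR adjusted p = 0.0123). Without GFP replicate 3 the OSK value was -0.40 (edgeR adjusted p = 0.06). Between the 2 lines, TRIB3 was lower in OSK by 1.28 on the log2 scale (log2 fold change -1.28, edgeR adjusted p = 2.1e-07).

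PPP1R15A (GADD34) brings a phosphatase to eIF2alpha and so ends the stress response. It measured 92.8, 104 and 106 CPM in WT, 81.8, 89.8 and 104 CPM in GFP, 116, 115 and 116 CPM in GSTA4, and 49.2, 45.4 and 43.8 CPM in OSK. GSTA4 was above and OSK below every WT and GFP library, and WT and GFP overlapped. It rose by 0.33 in GSTA4 (SE 0.0774, edgeR adjusted p = 0.00264) and fell by 0.99 on the log2 scale in OSK (log2 fold change -0.99, SE 0.0811, edgeR adjusted p = 2.91e-09), both against GFP. In OSK against GSTA4 the log2 fold change was -1.33 (edgeR adjusted p = 1.96e-11). Of the 58 tested genes within 1 Mb of PPP1R15A, 18 (31%) were also higher in GSTA4 than in GFP, against 14.7% of all genes. STC2 encodes stanniocalcin 2, a secreted glycoprotein that ATF4 induces. It measured 97.7, 129 and 124 CPM in WT, 73.9, 88.5 and 80.8 CPM in GFP, 103, 101 and 94.3 CPM in GSTA4, and 49.5, 46.7 and 44.9 CPM in OSK. OSK was the lowest group without overlap, and GFP lay between OSK and the other groups. STC2 fell in OSK against GFP (log2 fold change -0.79, SE 0.0919, edgeR adjusted p = 5.29e-07) and in GFP against WT (log2 fold change -0.53, edgeR adjusted p = 0.000254). Its rise in GSTA4 against GFP (log2 fold change 0.29, edgeR adjusted p = 0.0172) was lost without GFP replicate 1, GSTA4 replicate 1 or GSTA4 replicate 2 (edgeR adjusted p = 0.0559 to 0.0963). Of the 10 tested genes within 1 Mb of STC2, 4 were also higher in GSTA4 than in GFP, against 14.7% of all genes.

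SESN2, which holds back mTORC1 when leucine is scarce, measured 30.2, 28.6 and 30 CPM in WT, 24.9, 29.6 and 24.7 CPM in GFP, 38.3, 34.6 and 36 CPM in GSTA4, and 22.5, 28.6 and 25 CPM in OSK. The GSTA4 libraries were the highest, GFP overlapped both WT and OSK, and OSK reached 28.6 CPM, just under the lowest WT library. SESN2 rose in GSTA4 against GFP by 0.46 (SE 0.097, edgeR adjusted p = 0.00113). DDIT4 (REDD1), another brake on mTORC1, was 53.2 ± 8.16 CPM (SD, n = 3) in GFP and 70.4 ± 6.01 CPM in OSK, and rose in OSK by 0.40 (edgeR adjusted p = 0.00767), a call lost without GFP replicate 1 (0.28, edgeR adjusted p = 0.0607). In the gene models 41.2% of the exonic bases of DDIT4 are shared with an antisense gene, whose symbol is not among the lines of the counts. VLDLR, a lipoprotein receptor that ATF4 induces, was 57.2 ± 3.78 CPM in GFP and 96.5 ± 7.32 CPM in OSK, and rose by 0.75 on the log2 scale (edgeR adjusted p = 3.19e-08).

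CHAC1, which breaks down glutathione and is among the genes that respond most to amino acid lack, was close to the floor, with 87 reads over the 12 libraries. Its levels were 0.373, 0.808 and 0.295 CPM in WT, 0.608, 0.358 and 0.272 CPM in GFP, 0.953, 0.901 and 0.619 CPM in GSTA4, and 0.285, 0.253 and 0.281 CPM in OSK. GSTA4 lay above GFP without overlap, where 42.3% of all genes tested did not overlap in either direction. The log2 fold change of CHAC1 was 1.00 (SE 0.524, edgeR adjusted p = 0.167). The difference between OSK and GSTA4 (log2 fold change -1.57, edgeR adjusted p = 0.024) was lost without GSTA4 replicate 1 or 2 or any 1 of the 3 OSK libraries (edgeR adjusted p = 0.0691 to 0.0863), and by DESeq2. Of the 38 tested genes within 1 Mb of CHAC1, 23 (60.5%) were also higher in GSTA4 than in GFP, against 14.7% of all genes.

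**Figure D3:**
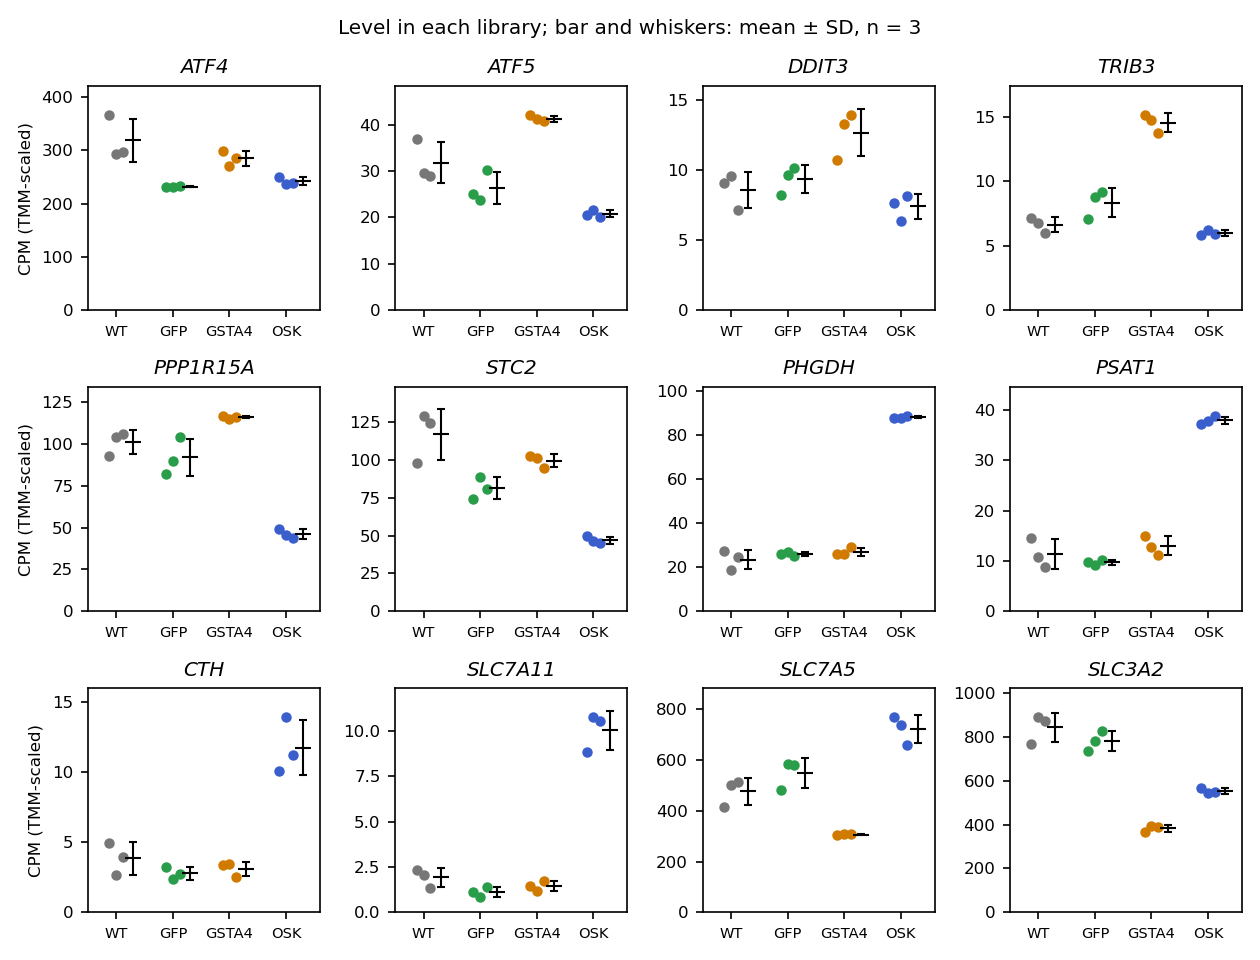
CPM (linear axis from 0, TMM-scaled) of 12 members in each library by group, 1 panel per gene, with points for libraries and the bar and whiskers for the mean ± SD of n = 3. The OSK points stand apart upwards for PHGDH, PSAT1, CTH and SLC7A11 and downwards for PPP1R15A and STC2, and the GSTA4 points stand apart upwards for ATF5, DDIT3 and TRIB3 and downwards for SLC7A5 and SLC3A2.

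The enzymes of serine and one-carbon metabolism separated the first steps of serine synthesis from the rest in the OSK line. PHGDH, which takes 3-phosphoglycerate out of glycolysis in the committed step, measured 27.4, 18.6 and 24.7 CPM in WT, 26.1, 26.9 and 25.4 CPM in GFP, 26.1, 25.9 and 29.1 CPM in GSTA4, and 87.9, 87.9 and 88.7 CPM in OSK. The 3 OSK libraries were within 1 CPM of each other and far above the other 9, which overlapped. PHGDH rose in OSK by 1.75 against GFP (SE 0.0992, edgeR adjusted p = 1.02e-11), 1.70 against GSTA4 (edgeR adjusted p = 9.01e-12) and 1.90 against WT (edgeR adjusted p = 2.33e-12). PSAT1, the aminotransferase of the next step, measured 14.6, 10.7 and 8.85 CPM in WT, 9.88, 9.25 and 10.3 CPM in GFP, 15, 12.8 and 11.3 CPM in GSTA4, and 37.3, 37.8 and 38.8 CPM in OSK. Again the OSK libraries stood alone, and the log2 fold change against GFP was 1.95 (SE 0.141, edgeR adjusted p = 4.5e-10). In GSTA4 against GFP it was 0.41 (SE 0.152, edgeR adjusted p = 0.0466), and that call was lost under RLE scaling, under library size alone, under a filter at a mean of 1 CPM and without any 1 of the GFP or OSK libraries or GSTA4 replicate 1 or 2 (edgeR adjusted p = 0.0584 to 0.217 without a library).

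The remaining enzymes of the branch did not follow PHGDH and PSAT1. In OSK against GFP the log2 fold change of PSPH, the phosphatase that releases serine, was 0.07 (SE 0.133, edgeR adjusted p = 0.678). SHMT2, which moves the serine carbon to folate in mitochondria, had 0.02 (SE 0.076, edgeR adjusted p = 0.842), with 86.1 ± 10.4 CPM (SD, n = 3) in GFP and 87.5 ± 2.28 CPM in OSK. MTHFD2, the next mitochondrial folate enzyme, had -0.09 (SE 0.0786, edgeR adjusted p = 0.37), at 29.7 ± 1.23 and 27.9 ± 0.326 CPM. MTHFD2 was lower in OSK than in GSTA4 (log2 fold change -0.29, edgeR adjusted p = 0.00433), and 33.2% of its exonic bases are shared with other genes. ALDH1L2, which oxidises formyl-folate in mitochondria, had 91 reads in all, with 1.45, 0.788 and 0.408 CPM in GFP and 0.427, 0.0633 and 0.211 CPM in OSK. Its OSK replicate 2 value rests on 1 read, and the GFP and OSK libraries overlapped. The call in OSK against GFP (edgeR adjusted p = 0.0239) was lost without GFP replicate 1, OSK replicate 2 or OSK replicate 3 (edgeR adjusted p = 0.0754 to 0.152).

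Among the 6 other enzymes, CTH and PCK2 rose in OSK while ASNS did not pass edgeR's test in the 6 contrasts. CTH makes cysteine in the last step of transsulfuration. It measured 4.98, 2.64 and 3.95 CPM in WT, 3.27, 2.37 and 2.72 CPM in GFP, 3.37, 3.45 and 2.55 CPM in GSTA4, and 10.1, 13.9 and 11.3 CPM in OSK. The OSK libraries were all above 10 CPM and the other groups overlapped below 5 CPM. CTH rose in OSK by 2.08 against GFP (SE 0.226, edgeR adjusted p = 1.89e-07) and by 1.91 against GSTA4 (edgeR adjusted p = 3.61e-07). PCK2, the mitochondrial PEP carboxykinase, measured 6.16, 6.54 and 6.49 CPM in WT, 7, 8.53 and 7.61 CPM in GFP, 9.66, 8.41 and 7.77 CPM in GSTA4, and 21.9, 23.4 and 27.9 CPM in OSK. OSK again stood alone, and its log2 fold changes were 1.66 against GFP (SE 0.133, edgeR adjusted p = 2.34e-09) and 1.93 against WT (edgeR adjusted p = 2.2e-10).

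ASNS makes asparagine, and its gene carries the element on which amino acid responses were worked out. It was low in each group, at 2.92, 1.25 and 1.71 CPM in WT, 1.98, 2.65 and 1.09 CPM in GFP, 2.22, 2.25 and 1.03 CPM in GSTA4, and 1.21, 1.58 and 1.41 CPM in OSK. All 4 groups overlapped. The log2 fold change was -0.05 for GSTA4 against GFP (SE 0.396, edgeR adjusted p = 0.945) and -0.43 for OSK against GFP (SE 0.407, edgeR adjusted p = 0.408), and a difference was not detectable at this depth of 314 reads in all. In the gene models 44.6% of the exonic bases of ASNS are shared with another gene on the same strand. The symbol of that gene is not among the lines of the counts, so whether the overlap affected the counts is not known. The proline enzymes ALDH18A1 and PYCR1 and the alanine aminotransferase GPT2 had log2 fold changes of 0.13, 0.22 and -0.15 in OSK against GFP (edgeR adjusted p = 0.145, 0.233 and 0.27). In GSTA4 against GFP the values of the 6 enzymes ran from -0.12 to 0.17, with edgeR adjusted p-values of 0.225 or higher.

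The 8 transporters split by line, with 3 lower in GSTA4 than in GFP (37.5% called, against 29.2% of all genes tested), and 3 higher and 1 lower in OSK (50%, against 45.9%). SLC3A2 (4F2hc) is the heavy chain that carries SLC7A5 and SLC7A11 to the cell surface, and its promoter holds a match to TGATGNAA. It measured 768, 888 and 872 CPM in WT, 735, 780.5 and 826 CPM in GFP, 366, 394 and 390.3 CPM in GSTA4, and 565, 542 and 549.5 CPM in OSK. The GSTA4 libraries were the lowest, the OSK libraries next, and WT and GFP overlapped. The log2 fold change was -1.03 for GSTA4 against GFP (SE 0.0656, edgeR adjusted p = 1.7e-10) and -0.50 for OSK against GFP (SE 0.065, edgeR adjusted p = 2.28e-06). SLC7A5 (LAT1) takes up leucine and other large neutral amino acids. It measured 416, 502 and 512 CPM in WT, 482, 583 and 582 CPM in GFP, 303, 308 and 309 CPM in GSTA4, and 768, 739 and 661 CPM in OSK. GSTA4 was below and OSK above all WT and GFP libraries. SLC7A5 fell in GSTA4 against GFP (log2 fold change -0.84, SE 0.0835, edgeR adjusted p = 1.37e-07) and rose in OSK (0.40, SE 0.0825, edgeR adjusted p = 0.000523), and it was 1.24 higher in OSK than in GSTA4 (edgeR adjusted p = 1.15e-10).

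SLC7A1, a cationic amino acid transporter whose promoter also holds a match to TGATGNAA, measured 153, 168 and 161 CPM in WT, 179.6, 185 and 192 CPM in GFP, 119.6, 123 and 119 CPM in GSTA4, and 187, 199 and 187 CPM in OSK. The GSTA4 libraries were the lowest and GFP and OSK overlapped. It fell in GSTA4 against GFP (log2 fold change -0.62, SE 0.0568, edgeR adjusted p = 3.93e-08). Its rise in GFP against WT (0.20, edgeR adjusted p = 0.0127) was lost without WT replicate 1 (0.17, edgeR adjusted p = 0.0588). SLC7A11 (xCT) brings in cystine in exchange for glutamate and so feeds glutathione synthesis. It measured 2.36, 2.06 and 1.36 CPM in WT, 1.14, 0.86 and 1.43 CPM in GFP, 1.46, 1.2 and 1.72 CPM in GSTA4, and 8.82, 10.8 and 10.6 CPM in OSK. The OSK libraries stood far above the other 9, which overlapped. SLC7A11 rose in OSK by 3.12 against GFP (SE 0.259, edgeR adjusted p = 3.55e-09), the largest value of the 35 members in that contrast, and by 2.77 against GSTA4 (edgeR adjusted p = 8.09e-09). For GSTA4 against GFP it was 0.35 (SE 0.313, edgeR adjusted p = 0.436).

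SLC38A2 (SNAT2), a sodium-coupled neutral amino acid transporter, and SLC6A9, a glycine transporter, were low and uneven in WT. SLC38A2 measured 5.35, 2.57 and 1.83 CPM in WT, 0.989, 0.932 and 0.815 CPM in GFP, 2.16, 1.28 and 1.72 CPM in GSTA4, and 3.84, 3.1 and 3.17 CPM in OSK. GFP was the lowest group without overlap. SLC38A2 fell in GFP against WT (log2 fold change -1.83, SE 0.383, edgeR adjusted p = 0.00196), with -1.26 and an edgeR adjusted p of 0.0208 without WT replicate 1. It rose in OSK against GFP by 1.88 (SE 0.384, edgeR adjusted p = 0.000437). In GSTA4 against GFP it had 0.92 (SE 0.411, edgeR adjusted p = 0.1), which passed without WT replicate 1 (0.92, edgeR adjusted p = 0.0462). SLC6A9 measured 3.42, 0.881 and 0.649 CPM in WT and 0.912, 0.143 and 0.34 CPM in GFP. One WT library was several times the others, and its call in GFP against WT (log2 fold change -1.84, edgeR adjusted p = 0.044) was lost without WT replicate 1 (-0.72, edgeR adjusted p = 0.523), and also without GFP replicate 2 or 3 or any 1 of the GSTA4 or OSK libraries (lowest edgeR adjusted p = 0.0571). SLC1A4 (ASCT1), with a match to TGATGNAA 7 bases before its start site, measured 7.71, 6.09 and 6.79 CPM in WT, 9.81, 10.5 and 9.17 CPM in GFP, 9.72, 9.76 and 9.63 CPM in GSTA4, and 11.5, 10.2 and 9.85 CPM in OSK. WT was below the ORF lines without overlap, and the rise in GFP (0.51, edgeR adjusted p = 0.0124) was lost without WT replicate 2 or GFP replicate 2 (edgeR adjusted p = 0.053 to 0.0547). SLC1A5, the glutamine transporter ASCT2, had 189 reads in all and no call in the 6 contrasts by edgeR, with a smallest adjusted p of 0.0993 in GSTA4 against GFP.

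XPOT, which carries mature tRNA out of the nucleus, rose in GSTA4 against GFP, from 90, 87.1 and 90.6 CPM to 117, 109.6 and 106 CPM. The groups did not overlap, and the log2 fold change was 0.31 (SE 0.066, edgeR adjusted p = 0.00115). In OSK it was 84.2 ± 5.41 CPM (SD, n = 3), with -0.08 against GFP (edgeR adjusted p = 0.32).

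Per kilobase of exon in the gene models, SLC3A2, SLC7A5 and ATF4 had the highest mean levels of the members over the 12 libraries, at 124, 108 and 107 CPM per kb. SLC3A2 stood at 163, 151, 74 and 107 CPM per kb in WT, GFP, GSTA4 and OSK, and SLC7A5 at 100, 116, 64.6 and 152. On the same scale SLC7A11, another light chain that pairs with SLC3A2, was at 0.118 CPM per kb in GFP and 1.04 in OSK. PSAT1 at 17.3 CPM per kb exceeded PHGDH at 9.57 in OSK. ALDH1L2 and SLC6A9 were lowest, at 0.0614 and 0.141. Mean levels under 5 CPM were found for 7 members, CHAC1, ALDH1L2, ASNS, SLC7A11, SLC1A5, SLC38A2 and SLC6A9.

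Genes around the response were described by lists that do not include the 35 members. In the machinery upstream, 5 of 17 genes for eIF2alpha kinases and their partners rose in GSTA4 against GFP and no gene fell, with a median log2 fold change of 0.12. The share called, 29.4%, was that of all genes tested (29.2%). EIF2AK4 (GCN2), the kinase that senses uncharged tRNA, rose by 0.66 (edgeR adjusted p = 1.84e-07). Of the 27 tested genes within 1 Mb of EIF2AK4, 14 (51.9%) were also higher, against 14.7% of all genes. IMPACT, an inhibitor of GCN2, rose by 0.48 (edgeR adjusted p = 5.51e-05), and EIF2S2, the beta subunit of eIF2, by 0.27 (edgeR adjusted p = 0.00335). The count of 5 was 3 without GFP replicate 1 or GSTA4 replicate 2. In OSK against GFP 3 rose and 2 fell (29.4% called, against 45.9% of all genes), with the lowest adjusted p for EIF2AK3 (PERK), the kinase of the endoplasmic reticulum, at 0.86 (edgeR adjusted p = 2.09e-07). EIF2S3, the gamma subunit of eIF2, fell by 0.39 on the log2 scale there (log2 fold change -0.39, edgeR adjusted p = 0.000265).

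Other known ATF4 and CHOP targets did not share a direction in the GSTA4 line, where 4 of 26 tested genes rose and 6 fell against GFP (38.5% called, against 29.2% of all genes tested), with a median of -0.09. ATF3, a bZIP factor induced early in the stress response, rose from 4.39 to 14.7 CPM (log2 fold change 1.74, edgeR adjusted p = 7.56e-07). GADD45A, a growth arrest gene, rose by 0.85 (edgeR adjusted p = 4e-06). VEGFA, the angiogenic factor that RPE cells secrete, fell from 208.2 to 97.1 CPM (log2 fold change -1.10, edgeR adjusted p = 6.01e-09). In OSK against GFP 7 rose and 8 fell (57.7%, against 45.9%). CLGN, a chaperone of the endoplasmic reticulum, rose by 1.90 (edgeR adjusted p = 5.14e-11), and NIBAN1 (log2 fold change -1.28, edgeR adjusted p = 1.46e-06) and NARS2, the mitochondrial asparaginyl-tRNA synthetase (log2 fold change -0.76, edgeR adjusted p = 2.87e-06), fell. In GFP against WT 1 rose and 7 fell (30.8% called, against 22.2% of all genes tested, 11% higher and 11.2% lower). Without WT replicate 1 or GFP replicate 2 or 3, 0 rose and 6 fell. SLC38A1 (SNAT1), a glutamine transporter, was at -1.04 in that contrast (edgeR adjusted p = 1.18e-06).

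The other arms of the unfolded protein response, those of ATF6 and XBP1, were lower in GSTA4 and higher in OSK. Of 20 genes, 13 fell and 1 rose in GSTA4 against GFP (median -0.26, against 0.01 for all genes), and 17 rose and no gene fell in OSK against GFP (median 0.50, against -0.02 for all genes). Of all genes tested, 14.6% were lower in GSTA4 and 23.1% higher in OSK. The single rise in GSTA4 was lost without GFP replicate 3 or GSTA4 replicate 3, where 11 fell. The summed level was 3630 to 4170 CPM in GFP, 3040 to 3170 CPM in GSTA4 and 5530 to 6060 CPM in OSK. HYOU1, a chaperone of the endoplasmic reticulum, fell by 0.67 on the log2 scale in GSTA4 (log2 fold change -0.67, edgeR adjusted p = 4.85e-08), as did DNAJC3 (-0.45, edgeR adjusted p = 8.38e-05), a co-chaperone and inhibitor of eIF2alpha kinases. In OSK, PDIA6 and PDIA4, protein disulfide isomerases, rose by 0.92 (edgeR adjusted p = 2.74e-10) and 0.80 (edgeR adjusted p = 7.01e-08). The 8 mitosis genes moved beside these lists, with 6 lower in GSTA4 and 8 higher in OSK against GFP.

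**Figure D4:**
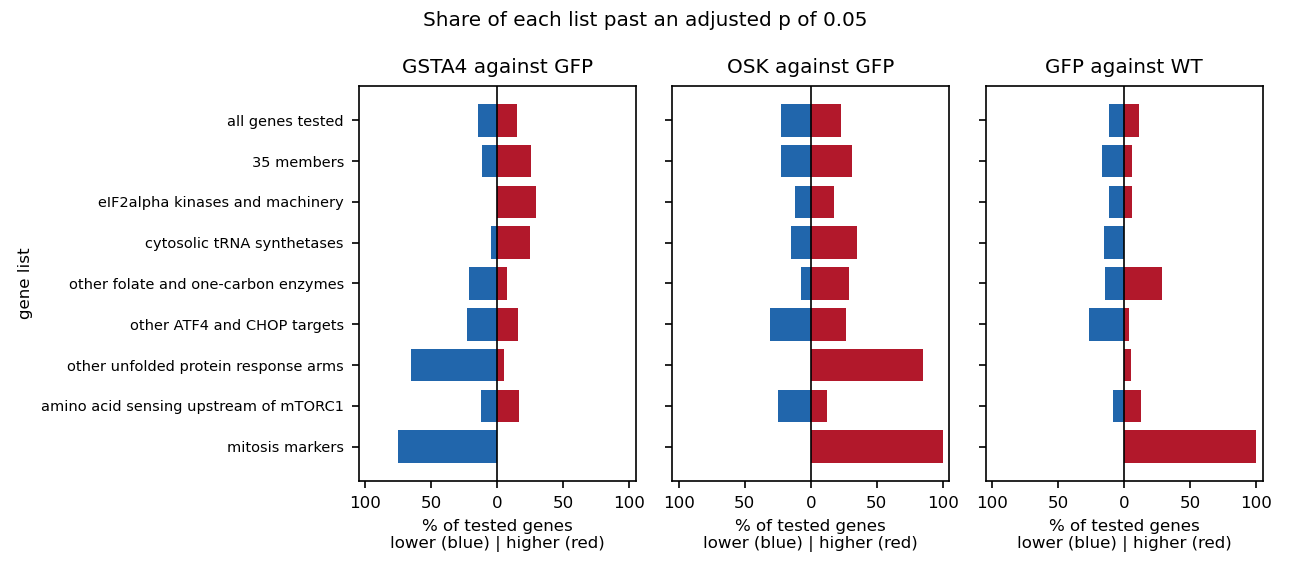
Share of the tested genes of each list past an adjusted p of 0.05, with lower genes to the left (blue) and higher genes to the right (red), for GSTA4 against GFP, OSK against GFP and GFP against WT, with all genes tested in the top row. The other unfolded protein response arms lie to the left in GSTA4 (13 of 20 genes) and to the right in OSK (17 of 20).

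Among 20 cytosolic tRNA synthetases, 5 rose and 1 fell in GSTA4 against GFP (median 0.12), and 7 rose and 3 fell in OSK (median 0.09). The shares called, 30% and 50%, were near the 29.2% and 45.9% of all genes tested. Without GSTA4 replicate 2 or 3, 3 rose in GSTA4, and the single fall was lost there and without GFP replicate 1 or 2. LARS1, the leucyl-tRNA synthetase and a leucine sensor, rose in GSTA4 by 0.36 (edgeR adjusted p = 4.3e-05). WARS1 and GARS1, which charge tRNA with tryptophan and glycine, rose in OSK by 0.91 (edgeR adjusted p = 1.05e-09) and 0.77 (edgeR adjusted p = 1.54e-08). Of 14 further folate enzymes, 1 rose and 3 fell in GSTA4 against GFP, and 4 rose and 1 fell in OSK. These shares, 28.6% and 35.7%, were not above the 29.2% and 45.9% of all genes. The single rise in GSTA4 was lost without any 1 of the GFP or GSTA4 libraries, and the single fall in OSK without any 1 of the GFP libraries or OSK replicate 2 or 3. MTHFD1L, which releases formate from mitochondria, rose in OSK from 57.6 to 228.8 CPM (log2 fold change 1.99, edgeR adjusted p = 2.62e-14) and fell in GSTA4 (-0.38, edgeR adjusted p = 0.00127). Of 24 genes of amino acid sensing upstream of mTORC1, 4 rose and 3 fell in GSTA4, or 3 and 1 without GSTA4 replicate 1 or 2 and 4 and 1 without GFP replicate 2, and 3 rose and 6 fell in OSK. The shares called were 29.2% in GSTA4, the same as for all genes tested, and 37.5% in OSK, below the 45.9% of all genes. SESN3, a relative of SESN2 that restrains mTORC1, had the lowest adjusted p of the list in both contrasts, at 26.6 CPM in GFP, 62.0 CPM in GSTA4 (log2 fold change 1.22, edgeR adjusted p = 5.04e-10) and 9.68 CPM in OSK (log2 fold change -1.46, edgeR adjusted p = 1.29e-10).

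Against WT, the ORF lines gave the following values for members not yet described there. In GSTA4, TRIB3 rose by 1.13 (edgeR adjusted p = 1.88e-06) and DDIT3 by 0.56 (edgeR adjusted p = 0.00673), while CEBPB fell by 0.86 (log2 fold change -0.86, edgeR adjusted p = 5.47e-08) and SLC3A2 by 1.14 (log2 fold change -1.14, edgeR adjusted p = 3.02e-11). ATF4 itself had -0.16 in GSTA4 against WT (SE 0.0718, edgeR adjusted p = 0.0835) and -0.40 in OSK against WT (edgeR adjusted p = 0.000127). STC2 was lower in GSTA4 than in WT (log2 fold change -0.23, edgeR adjusted p = 0.038). That call was lost without WT replicate 2 or 3, any 1 of the GSTA4 libraries or OSK replicate 2. The edgeR adjusted p of STC2 was then 0.0515 to 0.197. In OSK, SLC7A11 rose by 2.39 against WT (edgeR adjusted p = 4.48e-08), and STC2 and PPP1R15A fell, with log2 fold changes of -1.31 (edgeR adjusted p = 1.88e-10) and -1.13 (edgeR adjusted p = 3.03e-10). The contrasts share libraries, since GFP and WT each serve as the reference in several of them, so the values of one contrast are not independent of those of another.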

How the data were processed

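Whole-number read counts per gene were used as the authors deposited them, without normalization, for 12 libraries. Per the submitters' processing notes, STAR 2.7.1a and featureCounts 1.6.2 were used. The notes name human and mouse builds with no role, and the annotation release and strand setting are not given in the sources used here. Lines without a gene symbol held 0.485% to 0.822% of the reads and were left out. The 1272 named lines that share a symbol with another were kept apart.

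The main test was the quasi-likelihood F test of edgeR 4.0.16 (R 4.3.3, limma 3.58.1) on TMM-scaled libraries. After filterByExpr, which was given the groups, 15179 genes remained. A single model of the 12 libraries held 1 mean for each group (8 residual and 12 prior degrees of freedom, biological coefficient of variation 7.91%). Two-sided p-values received the Benjamini-Hochberg adjustment over all genes tested in a contrast, and a gene was called at an adjusted p under 0.05. SE is the log2 fold change over the root of F, and the prior count was 0.125. On simulated counts for GSTA4 against GFP, over 14891 genes, 68.8% of genes changed by a log2 of 0.5 were recovered, 81.2% at 1 and 100% at 2, with 5 false calls. Only 64, 69 and 67 genes were changed at these sizes, in the GSTA4 group alone, and genes with low counts were not among them. In the data 4439 genes were called in this contrast. The rates therefore do not describe the members near the floor or a contrast with so many changes.

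The members, roles and lists were chosen with earlier results of these data known, so counts over them are descriptions. Members were named freely. Values per library were given for ATF4, DDIT3, ASNS, CHAC1, TRIB3, PHGDH, PSAT1 and SLC7A11. They were also given for the 3 largest rises and falls per contrast among called members with a mean of at least 1 CPM, and for further members chosen after their values were seen. Up to 3 genes with the lowest adjusted p were named per related list. Exon overlap and length come from GENCODE 29 models on GRCh38, in which some overlapping genes have symbols that the counts do not hold. That comparison and the count of neighbours within 1 Mb were chosen after the values were seen. Results were recomputed by DESeq2 1.42.0, without a filter, with a filter at 1 CPM on the mean, with RLE scaling, with scaling by library size only, with a replicate block, from the 6 libraries of a contrast alone, and without 1 library at a time.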

Additional observations from a re-analysis of the deposited data

How the results depend on the processing

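The number of members called stayed within 1.5 times the reported count in each of the 6 contrasts and in the F test over the 4 groups, under all alternatives tried. Leaving out each library in turn gave 10 to 14 members for GSTA4 against GFP, 16 to 19 for OSK against GFP, 6 to 12 for GFP against WT, 22 to 25 for OSK against GSTA4, 12 to 18 for GSTA4 against WT, 19 to 23 for OSK against WT, and 26 to 29 for any difference. Of the 104 calls of a member in a contrast, 79 were kept in all alternatives that tested them, 25 were lost in at least 1, and no called value changed sign; the cause was not tested. The replicate numbers did not pair the samples: deviations of same-numbered libraries correlated at -0.02 to 0.169, with at most 1 of 3 pairs over 0.1 in a contrast. With the replicate number as a block, the same contrasts in the same order gave 13, 19, 11, 25, 19 and 21 members, and 28 for any difference. Depth limits the 7 members with a mean under 5 CPM, whose standard errors exceed those of the others.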

Other observations

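Genes next to CHAC1 and EIF2AK4 on chromosome 15 were often higher in the GSTA4 line too. Of the 38 tested genes within 1 Mb of CHAC1, 23 were higher and 3 lower in GSTA4 against GFP, with a median log2 fold change of 0.36, where 14.7% of all genes tested were higher. Of the 27 genes within 1 Mb of EIF2AK4, 14 were higher and 3 lower, with a median of 0.46. On chromosome 19, 17 of the 51 neighbours of ATF5 were higher and 1 lower in GSTA4 against GFP, and 18 of the 58 neighbours of PPP1R15A were higher and 3 lower. On chromosome 5, 4 of the 10 neighbours of STC2 were higher and 2 lower. In OSK against GFP 8 of the neighbours of CHAC1 were higher and 12 lower, and in GFP against WT 3 were higher and 7 lower. Also in GFP against WT, 0 of the neighbours of ATF5 were higher and 18 lower. Those of PPP1R15A gave 3 higher and 16 lower there, and those of STC2 1 higher and 4 lower. The background of that contrast was 11% higher and 11.2% lower. The neighbours of SLC3A2 on chromosome 11 gave 0 higher and 8 lower (23.5%) of 34 in GSTA4 against GFP, with a median of -0.12. Over all genes tested, 14.7% were higher and 14.6% lower in that contrast. SLC3A2 itself had -1.03. The 1 Mb windows of CHAC1 and EIF2AK4 lie on the same chromosome and may share genes. Those of PPP1R15A and ATF5, which start at bases 48872392 and 49928702 of chromosome 19, overlap. Their neighbour counts are therefore not separate observations. These 6 genes were singled out after their values were seen, and the part of the region in their own values was not tested.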
